A study of Mus musculus with 6 samples.

Results

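The carnitine shuttle genes were examined in the inguinal white adipose tissue (IWAT) of mice that carry 1 copy of *Ebf2* with a premature stop codon. The 8 genes, *Slc22a5*, *Cpt1a*, *Cpt1b*, *Cpt1c*, *Slc25a20*, *Cpt2*, *Crat*, and *Crot*, were selected by symbol from the 55491 genes of the deposited table, and each symbol named a single gene there. All 8 had at least 10 counts in every library, a depth reached by 18905 genes of the table. The 6 libraries came from male mice of the C57BL/6J background, 4 weeks old and fed regular chow, 3 of them Ebf2+/+ and 3 of them Ebf2 p.E165X/+. The heterozygous mice carry the nonsense variant as a knock-in made with CRISPR/Cas9 in embryos of a hybrid strain, followed by breeding to C57BL/6J. The allele is present in every cell rather than in adipocytes alone, no homozygous mice were included, and the RNA came from whole tissue.

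Long-chain fatty acids cannot cross the inner mitochondrial membrane as acyl-CoA, so cells pass them through it as carnitine esters. Carnitine enters the cell through the plasma membrane transporter OCTN2 (*Slc22a5*). Carnitine palmitoyltransferase 1 on the outer mitochondrial membrane makes the acylcarnitine, the carnitine/acylcarnitine carrier (*Slc25a20*) exchanges it across the inner membrane, and carnitine palmitoyltransferase 2 (*Cpt2*) returns the acyl group to CoA for β-oxidation. The transferase of the outer membrane has a form typical of liver (*Cpt1a*) and a form typical of muscle, heart, and brown fat (*Cpt1b*). *Cpt1c* encodes a related protein of neurons. Carnitine acetyltransferase (*Crat*) and carnitine octanoyltransferase (*Crot*), the latter a peroxisomal enzyme, act on short and medium chains. EBF2 is a transcription factor of adipocyte precursors and of brown and beige adipocytes.

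The libraries held between 106820505 and 135039488 counts, so that counting error of the 8 genes was at most 4.19% in any library (*Cpt1c*) and the number of mice limits the precision. Levels are given as CPM, the usual unit of counts scaled to a common library size, and those of a genotype are listed in the order of its libraries 1 to 3. *Ebf2* itself was counted 4603, 4357, and 4611 times in wild-type mice and 2635, 2863, and 2697 times in heterozygous mice. All heterozygous libraries were below all wild-type ones, with means of 39.0 ± 2.14 and 22.3 ± 1.04 CPM (SD, n = 3 each). Its log2 fold change was -0.81 (SE 0.076), with an adjusted *P* of 0.0596 by edgeR and 1.23e-13 by DESeq2.

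A single library stood apart in its content of muscle. The 10 skeletal muscle markers, with *Myh4* (a fast myosin heavy chain) the most abundant and none at 0, took 0.202%, 0.834%, and 0.329% of all counts in Ebf2+/+ and 0.376%, 0.0913%, and 4.74% in Ebf2 p.E165X/+. The share in the third heterozygous library was 5.69 times that of the next highest library, while the other 5 libraries of both genotypes overlapped. Over all 6 libraries the genotypes gave *P* = 0.8 (two-sided exact permutation test, where 0.1 is the smallest possible). The 9 adipocyte markers, led by *Car3*, were all present in every library. They took at least 2.31% of counts in Ebf2+/+ and 2.58%, 2.44%, and 1.75% in Ebf2 p.E165X/+, with the muscle-rich library lowest. Because *Cpt1b* is a gene of muscle, results are given with and without that library.

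Among the 8 genes, the carrier *Slc25a20* had the clearest difference between genotypes over all 6 libraries. *Cpt2* and *Crat* were also lower in all Ebf2 p.E165X/+ libraries, *Cpt1a* was higher in all of them, and *Slc22a5*, *Cpt1c*, and *Crot* overlapped between genotypes. *Cpt1b* was low in 2 heterozygous libraries and at its highest level in the muscle-rich one. With edgeR, 0 of the 8 passed an adjusted *P* of 0.05, where 0.00918% of the 32664 genes tested passed, and 4 of the 8 had an unadjusted *P* under 0.05. These were 3 lower genes and 1 higher gene, while of the 18905 well-counted genes 4.21% were lower and 1.86% higher at that level. With DESeq2, 1 of the 8 (*Slc25a20*) passed, against 1.18% of the 16078 genes to which it gave an adjusted *P* (1.07% lower). *Slc25a20* also passed a linear fold change of 1.5 there, as did 0.61% of those genes. Of the 8 genes, 3 were lower and 1 was higher with no overlap between genotypes, while 6.78% of the same 18905 genes were lower and 6.66% higher without overlap. The median log2 fold change of the 8 genes was -0.24, beside 0.014 for all genes tested.

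**Figure D1:**
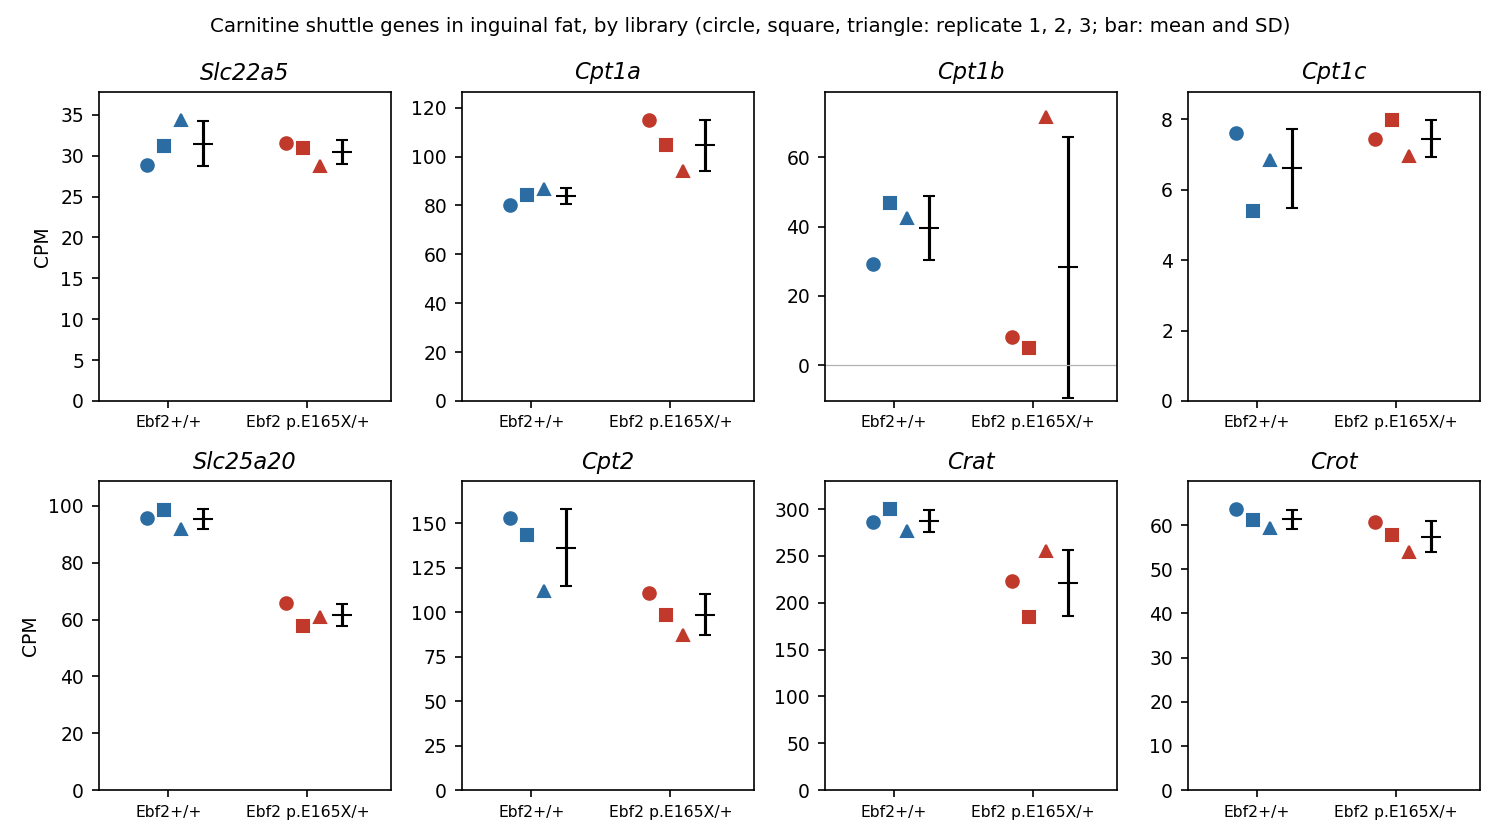
CPM of the 8 carnitine shuttle genes in each library (circle, square, and triangle for libraries 1, 2, and 3), with the mean and SD of each genotype (n = 3). The genotypes are apart for *Cpt1a*, *Slc25a20*, *Cpt2*, and *Crat*, and the SD of *Cpt1b* in Ebf2 p.E165X/+ (37.6 CPM) exceeds its mean (28.2 CPM) because of the triangle at 71.6 CPM.

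The transcript of the carnitine transporter *Slc22a5* (ENSMUSG00000018900, GRCm38 chr11:53864542-53891660, minus strand) overlapped between genotypes. Its level was 28.8, 31.2, and 34.3 CPM in Ebf2+/+ and 31.6, 31.0, and 28.7 CPM in Ebf2 p.E165X/+. The log2 fold change was -0.047 (SE 0.087, edgeR adjusted *P* = 0.902). Related transporters overlapped as well over all 6 libraries. *Slc22a4*, which encodes the carnitine and ergothioneine transporter OCTN1, was at 13.8, 13.7, and 12.7 CPM in Ebf2+/+ and 13.9, 14.997, and 11.1 CPM in Ebf2 p.E165X/+. Among those with at least 10 counts in every library, the lowest and highest log2 fold changes were those of *Slc22a21* (-0.013), a close relative of *Slc22a5*, and *Slc16a9* (0.07), a transporter linked to carnitine export. *Slc6a14*, an amino acid transporter that also takes up carnitine, was lowest of all at -0.76 (SE 1.3), from low levels of 0.375, 0, and 0.169 CPM in Ebf2+/+ and 0.19, 0, and 0.133 CPM in Ebf2 p.E165X/+. Without the muscle-rich library, *Slc22a4* was higher without overlap (0.11, edgeR adjusted *P* = 0.861). *Slc22a21* was then at 0.013 and *Slc16a9* at -0.056. Of the 5 other carnitine transporters listed, 4 were tested and 0 had an unadjusted *P* under 0.05 by edgeR or an adjusted *P* under 0.05 by DESeq2, and *Slc22a16* had 0 counts in all libraries. By edgeR 4.21% of well-counted genes were lower and 1.86% higher at that level, and 1.18% of genes passed by DESeq2. Beside these shares, 0 of 4 says little of the list.

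*Cpt1a* (ENSMUSG00000024900, chr19:3322334-3385733, plus strand), the liver form, inhibited by malonyl-CoA, was the most abundant outer-membrane transferase in CPM in every library. It was at 80.4, 84.1, and 86.8 CPM in Ebf2+/+ and at 115, 105, and 94.1 CPM in Ebf2 p.E165X/+. Every heterozygous library was above every wild-type library, and the means were 83.8 ± 3.21 and 104.6 ± 10.4 CPM (SD, n = 3 each). The log2 fold change of 0.32 (SE 0.090) did not pass over all genes (edgeR, unadjusted *P* = 0.00833 and adjusted *P* = 0.783, DESeq2 adjusted *P* = 0.185). Without the third heterozygous library, which had the lowest value of its genotype, it was 0.39 (SE 0.080), with an adjusted *P* of 0.287 by edgeR and 0.00181 by DESeq2.

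*Cpt1b* (ENSMUSG00000078937, chr15:89416405-89425863, minus strand) varied more than any other of the 8 genes. It had 3509, 4942, and 5267 counts in Ebf2+/+ and 944, 615, and 9176 counts in Ebf2 p.E165X/+. These counts correspond to 29.2, 46.9, and 42.5 CPM and to 8.16, 4.92, and 71.6 CPM. Heterozygous libraries 1 and 2 were below all wild-type libraries, and the muscle-rich library 3 was above all of them. Over all 6 libraries the log2 fold change was -0.48 (SE 0.88, edgeR adjusted *P* = 0.901), and DESeq2 gave no adjusted *P*. With limma-voom it was -1.43, which did not pass either.

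Without the third heterozygous library, *Cpt1b* was lower in Ebf2 p.E165X/+ by a log2 fold change of -2.60 (SE 0.25), which passed with edgeR (adjusted *P* = 0.0469) and with DESeq2 (adjusted *P* = 2.63e-18). It was then the only one of the 8 to pass with edgeR, where 0.0343% of 32108 genes passed. The call rests on 2 heterozygous mice, and leaving out heterozygous library 2 in place of library 3 gave a log2 fold change of 0.014. With DESeq2 and without the third library, 4 of the 8 passed (*Cpt1b*, *Slc25a20*, *Crat*, and *Cpt1a*), against 2.17% of 17110 genes. With a linear fold change above 1.5 as well, as for 0.923% of those genes, *Cpt1b* and *Slc25a20* were left.

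Muscle and beige adipocyte markers are given beside *Cpt1b* by library. In order of muscle marker share, the Ebf2+/+ libraries at 0.202%, 0.329%, and 0.834% had 29.2, 42.5, and 46.9 CPM of *Cpt1b*, and the Ebf2 p.E165X/+ libraries at 0.0913%, 0.376%, and 4.74% had 4.92, 8.16, and 71.6 CPM. Within each genotype the order of the 3 libraries was the same for both measures. Brown and beige adipocyte markers, with *Cidea* (a lipid droplet protein of thermogenic fat) the most abundant, took 0.0233%, 0.0266%, and 0.0277% of counts in Ebf2+/+ and 0.00768%, 0.00888%, and 0.0110% in Ebf2 p.E165X/+. The genotypes did not overlap (two-sided exact permutation test, *P* = 0.1, the smallest possible, 0.45 after adjustment over 9 marker lists). None of these 9 markers was at 0 in any library. Singly, *Elovl3*, *Dio2*, *Cox7a1*, and *Cox8b* overlapped between genotypes and the other 5 did not. All 5 were lower, as were 6.78% of well-counted genes without overlap. Without heterozygous library 3, *Dio2*, *Cox7a1*, and *Cox8b* were also lower without overlap. The summed share of heterozygous library 3 includes 2781 counts of *Cox7a1* and 4206 counts of *Cox8b*, both subunits of cytochrome c oxidase that muscle also expresses, where libraries 1 and 2 had 479 and 307 counts of *Cox7a1* and 1572 and 2211 counts of *Cox8b*. In RNA of whole tissue, fewer cells of a type and less RNA per cell cannot be told apart, and the part of muscle or of beige adipocytes in the level of *Cpt1b* was not tested.

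**Figure D2:**
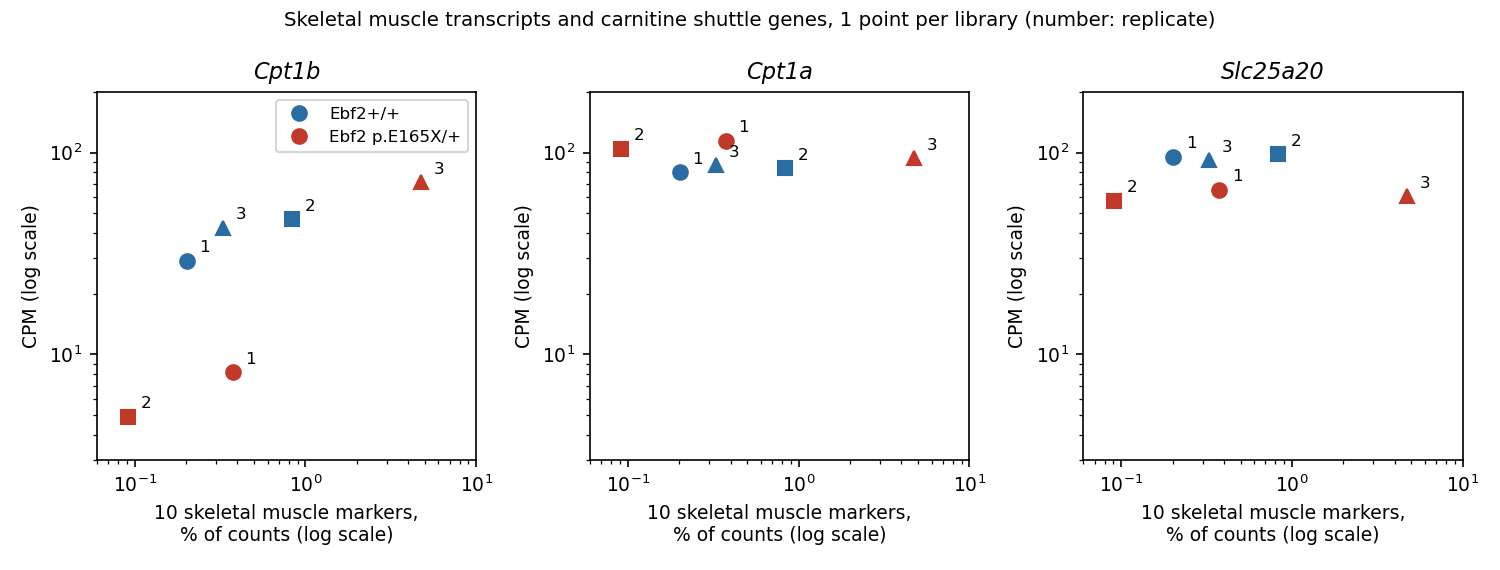
Level of *Cpt1b*, *Cpt1a*, and *Slc25a20* (CPM, log scale) against the share of counts of 10 skeletal muscle markers (%, log scale), with 1 point per library and its replicate number. The third Ebf2 p.E165X/+ library, at 4.74% muscle markers, has the highest *Cpt1b* of all but lies with the other heterozygous libraries for *Slc25a20* (61.1 CPM, beside 65.7 and 57.9 CPM).

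Within a library, the balance of *Cpt1b* to *Cpt1a* does not depend on the scaling for library size, but it does depend on whether levels are taken per length. The ratio of their CPM was 0.363, 0.557, and 0.490 in Ebf2+/+ and 0.0710, 0.0470, and 0.761 in Ebf2 p.E165X/+. Expressed as a share of the summed CPM of *Cpt1a*, *Cpt1b*, and *Cpt1c*, *Cpt1b* took 24.9% to 34.4% in Ebf2+/+, 6.25% and 4.18% in heterozygous libraries 1 and 2, and 41.5% in library 3. Per kb of exon the share was 42.2%, 53.7%, and 50.1% in Ebf2+/+ and 12.9%, 8.80%, and 61.1% in Ebf2 p.E165X/+, so that *Cpt1b* was the larger part in wild-type libraries 2 and 3 and heterozygous library 3 on that scale only. The log2 ratio of CPM averaged -1.11 ± 0.32 in Ebf2+/+ and -2.87 ± 2.17 in Ebf2 p.E165X/+ (SD, n = 3 each, two-sided exact permutation test, *P* = 0.4, where 0.1 is the smallest possible). The summed CPM of *Cpt1a*, *Cpt1b*, and *Cpt1c* was 117, 136, and 136 in Ebf2+/+ and 130.4, 118, and 173 in Ebf2 p.E165X/+. The sum overlapped between genotypes, with the muscle-rich library highest.

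Reads of *Cpt1b* may be shared with a readthrough gene. *Gm44502* joins the choline kinase gene *Chkb* to *Cpt1b* on the same strand and shares 2744 exonic bases with *Cpt1b*, so that the division of reads between them depends on the counting. It had 297, 158, and 292 counts in Ebf2+/+ and 312, 244, and 439 counts in Ebf2 p.E165X/+. In heterozygous libraries 1 and 2 these stood beside only 944 and 615 counts of *Cpt1b*, so that the division of reads weighs most where *Cpt1b* was low. *Chkb*, whose end lies 496 bases from *Cpt1b*, was at 5014, 4414, and 5431 counts in Ebf2+/+ and 4609, 5370, and 4993 counts in Ebf2 p.E165X/+. It overlapped between genotypes and was not high in the muscle-rich library.

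*Cpt1c* (ENSMUSG00000007783, chr7:44959372-44974851, minus strand) was the least abundant of the 8 genes. It was at 7.62, 5.40, and 6.83 CPM in Ebf2+/+ and 7.44, 7.98, and 6.95 CPM in Ebf2 p.E165X/+. The genotypes overlapped, with a log2 fold change of 0.17 (SE 0.16, edgeR adjusted *P* = 0.783). Schwann cell and neuron markers were present at 0.0323% to 0.0428% of counts in Ebf2+/+ and 0.0398% to 0.0466% in Ebf2 p.E165X/+, and also overlapped.

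*Slc25a20* (ENSMUSG00000032602, chr9:108662088-108684641, plus strand) encodes the carrier that moves acylcarnitines across the inner membrane. It had 11493, 10399, and 11389 counts in Ebf2+/+ and 7602, 7233, and 7823 counts in Ebf2 p.E165X/+. In CPM, the levels were 95.7, 98.7, and 91.9 against 65.7, 57.9, and 61.1. The lowest wild-type library was well above the highest heterozygous library, and the mean in Ebf2 p.E165X/+ (61.6 ± 3.91 CPM) was 64.5% of that in Ebf2+/+ (95.4 ± 3.39 CPM, SD, n = 3 each). The log2 fold change was -0.63 (SE 0.075), with an unadjusted *P* of 4.36e-05 and an adjusted *P* of 0.129 by edgeR, while DESeq2 gave -0.64 with an adjusted *P* of 8.98e-09.

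The difference in *Slc25a20* was as large without the muscle-rich library (-0.63, SE 0.083, adjusted *P* of 0.118 by edgeR and 3.54e-08 by DESeq2) and ranged from -0.68 to -0.59 when each library was left out in turn. The study displayed *Slc25a20* among genes of these same libraries, so that it is not an independent choice. The next gene along chromosome 9, *Prkar2a* (a regulatory subunit of protein kinase A, 4672 bases away), had 7836, 6746, and 6660 counts in Ebf2+/+ and 6647, 6328, and 17284 counts in Ebf2 p.E165X/+. It was high in the muscle-rich library and otherwise showed no such gap between genotypes. The ratio of *Slc25a20* to *Cpt1a*, chosen after their values were seen, was 1.19, 1.17, and 1.06 in Ebf2+/+ and 0.572, 0.553, and 0.649 in Ebf2 p.E165X/+.

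Nuclear receptors of the PPAR family bind pairs of the hexamer AGGTCA spaced by a single base, and genes of fatty acid oxidation are known targets of PPARα. The promoter windows of RefSeq (GRCm38.p6, 250 bases before to 50 after the start) were therefore searched on both strands for AGGTCA, any base, AGGTCA, and 6 of the 8 genes, all but *Cpt1b* and *Crat*, had a window there. The best matches of *Slc25a20* and *Cpt2*, which were lower, of *Cpt1a*, which was higher, and of *Crot*, which overlapped between genotypes, are shown for comparison. Capitals mark the 13 bases aligned to the motif, with up to 8 flanking bases on each side within the window, on the strand of the gene.
*Slc25a20*: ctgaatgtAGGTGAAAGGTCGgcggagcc
*Cpt2*: aATGCCAAGTTTCAgcgtttct
*Cpt1a*: aaggaatgTTGTCCTAGGTCTgccgttgg
*Crot*: ttctggtcCGGCCTCAGGACAgcccagag

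In *Slc25a20* the match lies at chr9:108662134-108662162 (plus strand, flanks included), in a non-coding part of an exon, and its capitals begin 6 bases after the start. It differed from the motif at 2 bases, a closeness found in 3.86% of 32851 windows and in 1 of the 6 windows of carnitine shuttle genes. The best match differed at 4 bases in *Cpt1a* (chr19:3323147-3323175, plus strand) and in *Crot* (chr5:8997143-8997171, minus strand), and at 5 bases in *Cpt2* (chr4:107923818-107923839, minus strand). An exact motif was found in 0.0396% of all windows and in 0 of the 6. The single hexamer AGGTCA, whose letters are contained in the pair, occurred in the windows of *Cpt1a* and *Cpt1c* and in 16.3% of all windows, and TCCC, any 2 bases, GGGA, the palindrome bound by EBF proteins, in 0 of the 6 and in 0.904% of all windows. These matches describe letters in short windows and say nothing of binding in this tissue.

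*Cpt2* (ENSMUSG00000028607, chr4:107903981-107923610, minus strand), the transferase of the matrix side, was lower with a narrow gap. It was at 153, 144, and 111.7 CPM in Ebf2+/+ and 110.5, 98.4, and 87.1 CPM in Ebf2 p.E165X/+. Wild-type library 3 lay just above the first heterozygous library. The means were 136 ± 21.7 and 98.6 ± 11.7 CPM (SD, n = 3 each), the latter 72.5% of the former. The log2 fold change of -0.46 (SE 0.14) did not pass (adjusted *P* of 0.783 by edgeR and 0.124 by DESeq2), and it was -0.38 without the muscle-rich library.

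*Crat* (ENSMUSG00000026853, chr2:30400471-30415813, minus strand), which exchanges acetyl groups between CoA and carnitine, was the most abundant of the 8 genes in CPM. Its levels were 286, 299.7, and 276 CPM in Ebf2+/+ and 224, 185, and 255 CPM in Ebf2 p.E165X/+. All heterozygous libraries were lower, and the muscle-rich library was the closest to the wild type. The mean of 221.5 ± 35.1 CPM in Ebf2 p.E165X/+ was 77.1% of the 287 ± 11.8 CPM in Ebf2+/+ (SD, n = 3 each). The log2 fold change was -0.38 (SE 0.13), with an adjusted *P* of 0.783 by edgeR and 0.205 by DESeq2. Without the muscle-rich library it was -0.49 (SE 0.11), with an adjusted *P* of 0.422 by edgeR and 0.00165 by DESeq2. *Dolpp1* on the opposite strand shares 59 exonic bases with *Crat* and the antisense gene *Gm16323* shares 411, and whether the counting used strand is not given in the sources used here, so that a small part of its reads is uncertain.

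*Crot* (ENSMUSG00000003623, chr5:8966033-8997324, minus strand), which prepares chain-shortened acyl groups for export from peroxisomes, was at 63.6, 61.1, and 59.3 CPM in Ebf2+/+ and 60.7, 57.8, and 53.8 CPM in Ebf2 p.E165X/+. The genotypes overlapped, with a log2 fold change of -0.095 (SE 0.072, edgeR adjusted *P* = 0.783).

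**Figure D3:**
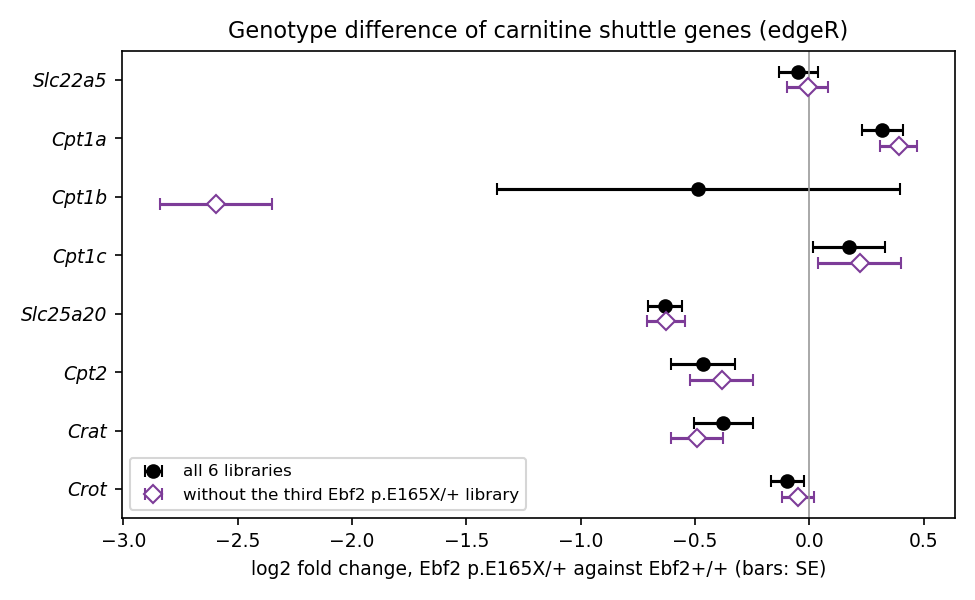
Log2 fold change of each carnitine shuttle gene in Ebf2 p.E165X/+ against Ebf2+/+ by edgeR, with SE, over all 6 libraries (filled circles) and without the third Ebf2 p.E165X/+ library (open diamonds). *Cpt1b* moves from -0.48 to -2.60, and *Slc25a20* is at -0.63 in both fits.

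To compare levels between genes, CPM was divided by the exonic length of each gene in kb. This scale applies to libraries that cover whole transcripts, and the sources differ on the kit used (the labels name a kit of one maker and the study a 3′ method of another), for which CPM itself would be the level. Per kb in Ebf2+/+, *Cpt2* (56.9 ± 9.06 CPM per kb) and *Crat* (53.3 ± 2.19) were highest, and they did not differ beyond their spread. *Slc25a20* followed at 19.7 ± 0.70 CPM per kb. *Cpt1b* (11.7 ± 2.73), *Crot* (11.2 ± 0.391), *Cpt1a* (11.0 ± 0.420), and *Slc22a5* (10.2 ± 0.903) formed a group whose neighbours did not differ beyond their spread, and *Cpt1c* was lowest at 1.18 ± 0.201 CPM per kb (SD, n = 3 each). In Ebf2 p.E165X/+ the order of *Slc25a20* and *Cpt1a* was turned, with 12.7 ± 0.808 and 13.7 ± 1.36 CPM per kb, which lie within their spread of each other. *Cpt1a* went from rank 6 to rank 3 and *Cpt1b* from rank 4 to rank 7. *Cpt1b* was then at 8.37 ± 11.2 CPM per kb, from 1.46 to 21.2, with the muscle-rich library highest. On the scale of CPM without length, the order in Ebf2+/+ was *Crat*, *Cpt2*, *Slc25a20*, *Cpt1a*, *Crot*, *Cpt1b*, *Slc22a5*, and *Cpt1c*.

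The genes whose pattern over the 6 libraries was nearest to that of a carnitine shuttle gene were found by the root mean square difference of centred log2 CPM (on the log2 scale) among 18905 genes. For *Slc25a20* they were *Eci1* (0.0595), *Adora1* (0.0640), and *Etfdh* (0.0723), where the median over all genes was 0.369. *Eci1* encodes an enoyl-CoA isomerase of β-oxidation, *Adora1* the adenosine A1 receptor, and *Etfdh* the dehydrogenase that passes electrons from β-oxidation to ubiquinone. For *Cpt1b* they were *Cox7a1* (0.284), a cytochrome c oxidase subunit of muscle and brown fat, *Car14* (0.302), a carbonic anhydrase, and *Phospho1* (0.463), a phosphatase, with a median over all genes of 1.42. *Cox7a1* was at 12.5, 19.0, and 13.8 CPM in Ebf2+/+ and 4.14, 2.46, and 21.7 CPM in Ebf2 p.E165X/+, so that it was low in the same 2 heterozygous libraries as *Cpt1b* and high in the muscle-rich one. For *Cpt2* the nearest genes were *Rassf10* (0.0455), *Sox7* (0.0466), and *Msra* (0.0521), with a median of 0.334.

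The pathway before and after the shuttle was described from lists of genes. In the mitochondrial matrix, all 15 genes of β-oxidation were lower in Ebf2 p.E165X/+ with no overlap (6.78% of well-counted genes), and all 15 had an unadjusted *P* under 0.05 by edgeR (4.21% in that direction). With an adjusted *P* under 0.05, 0 passed with edgeR and 14 fell with DESeq2 (1.07% in that direction). Their median log2 fold change was -0.60, next to the -0.63 of *Slc25a20*, and most of these genes were among those the study displayed from the same libraries. Brown and beige adipocyte markers were also lower without overlap, at a mean of 0.0259% of counts in Ebf2+/+ and 0.00919% in Ebf2 p.E165X/+. The part of beige adipocytes in the levels of the β-oxidation genes and of *Slc25a20* was not tested. *Acaa2*, the thiolase of the last step, was at 199, 239, and 199 CPM in Ebf2+/+ and 108, 98.4, and 119 CPM in Ebf2 p.E165X/+ (log2 fold change -0.97, SE 0.11, DESeq2 adjusted *P* = 1.36e-11). *Acadvl*, the very long-chain acyl-CoA dehydrogenase of the first step, was at 344, 352, and 316 CPM against 191, 186, and 210 CPM (-0.79, SE 0.096, DESeq2 adjusted *P* = 1.00e-12). Both genes were lower in all 3 heterozygous libraries, the muscle-rich one included. *Hadhb*, the β subunit of the trifunctional protein, was at -0.79 (SE 0.095) and *Eci1* at -0.74 (SE 0.083, DESeq2 adjusted *P* = 3.41e-10). The exception with DESeq2 was *Eci2*, another enoyl-CoA isomerase, at -0.21 (adjusted *P* = 0.362).

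Genes that set the supply of malonyl-CoA, the inhibitor of CPT1, were described in the same way. Of 9 genes for the synthesis, breakdown, and AMPK control of malonyl-CoA, 5 were lower and 4 higher, with a median of -0.11, and 1 fell with DESeq2, as did 1.07% of its genes. It was *Acacb*, the acetyl-CoA carboxylase at the mitochondrial surface, at 371, 252, and 309 CPM in Ebf2+/+ and 142, 134, and 176 CPM in Ebf2 p.E165X/+. No heterozygous library reached the lowest wild-type one, and the log2 fold change was -1.05 (SE 0.17, adjusted *P* of 0.353 by edgeR and 3.72e-07 by DESeq2). *Acaca*, the cytosolic carboxylase of lipogenesis, was at -0.74 (SE 0.32) and overlapped. *Mlycd*, malonyl-CoA decarboxylase, was at -0.27 (adjusted *P* of 0.783 by edgeR). The muscle-rich library was high for *Prkaa2*, a catalytic subunit of AMPK, with 36.3, 36.4, and 29.1 CPM in Ebf2+/+ and 22.5, 17.7, and 132 CPM in Ebf2 p.E165X/+. Without that library the median of the 9 genes was -0.31, and 3 fell with DESeq2, namely *Acacb*, *Prkaa2*, and *Mlycd*, where 2.17% of its genes passed. *Prkaa2* went from a log2 fold change of 0.76 to -0.76 (edgeR adjusted *P* = 0.251, DESeq2 adjusted *P* = 5.16e-04), and *Prkab2*, a regulatory subunit of AMPK, from 0.77 to 0.01.

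The acyl-CoA synthetases, which activate fatty acids for the shuttle, gave no call. Of 5, 4 were lower and 1 higher, and 0 passed with edgeR or DESeq2 at an adjusted *P* under 0.05 or with edgeR at an unadjusted *P* under 0.05. At an adjusted *P* under 0.05, 0.00918% of all genes passed with edgeR and 1.18% with DESeq2. At the unadjusted *P*, 4.21% of well-counted genes were lower and 1.86% higher, so that 0 of 5 says little of the list. The extremes were *Acsl3* (-0.40) and *Acsl6* (1.84), the latter 0.66, 0.76, and 0.36 CPM in Ebf2+/+ and 0.51, 0.46, and 5.39 CPM in Ebf2 p.E165X/+. The value of *Acsl6* rests on the muscle-rich library and was -0.28 without it. *Acsl3* was at -0.62 without that library and then lower without overlap (edgeR adjusted *P* = 0.764). The 3 genes of carnitine synthesis gave no call either, which beside the same shares says as little. *Aldh9a1* was at -0.28 (SE 0.14) and *Tmlhe* at -0.23 (SE 0.12). Without the muscle-rich library they were at -0.16 and -0.15. *Bbox1*, which encodes the enzyme of the last step, was lowest at -2.11 (SE 1.2, edgeR adjusted *P* = 0.783), from 131, 2, and 43 counts in Ebf2+/+ and 30, 2, and 8 counts in Ebf2 p.E165X/+. In the same order, epithelial markers took 0.00668%, 0.00019%, and 0.00345% of counts in Ebf2+/+ and 0.00289%, 0.000165%, and 0.00055% in Ebf2 p.E165X/+. Their part in the level of *Bbox1* was not tested.

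In peroxisomes, 10 of 11 β-oxidation genes were lower, 5 without overlap (6.78% of well-counted genes), with a median of -0.28 (-0.18 without the muscle-rich library). The only one that fell with DESeq2 (1.07% of its genes) was *Abcd3*, a peroxisomal transporter of acyl groups, at 141, 136, and 119 CPM in Ebf2+/+ and 99.7, 93.5, and 90.3 CPM in Ebf2 p.E165X/+ (-0.48, SE 0.089, DESeq2 adjusted *P* = 9.77e-04, edgeR adjusted *P* = 0.445). Among 8 nuclear receptors and coactivators of oxidation genes, 7 were lower with a median of -0.20, and *Ppara* fell with DESeq2, as did 1.07% of its genes. *Ppara*, which encodes the receptor PPARα, was at 10.9, 15.8, and 20.2 CPM in Ebf2+/+ and 4.39, 6.52, and 6.11 CPM in Ebf2 p.E165X/+ (-1.46, SE 0.24, adjusted *P* of 0.377 by edgeR and 6.34e-07 by DESeq2). Over all 6 libraries 2 of the 8 were lower without overlap (6.78% of well-counted genes), *Ppara* and the coactivator *Ppargc1b*. *Ppargc1b* was at 9.25, 9.41, and 9.30 CPM in Ebf2+/+ and 5.82, 7.35, and 7.52 CPM in Ebf2 p.E165X/+. Its log2 fold change was -0.43 (SE 0.13, adjusted *P* of 0.783 by edgeR and 0.0907 by DESeq2). *Ppard*, which encodes PPARδ, was highest of the list at 0.06. Without the muscle-rich library the median of the 8 was -0.37, and 3 fell with DESeq2, where 2.17% of its genes passed. *Ppargc1b* (adjusted *P* = 0.0262) and *Esrra* (which encodes ERRα, adjusted *P* = 0.0382) then joined *Ppara*.

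**Figure D4:**
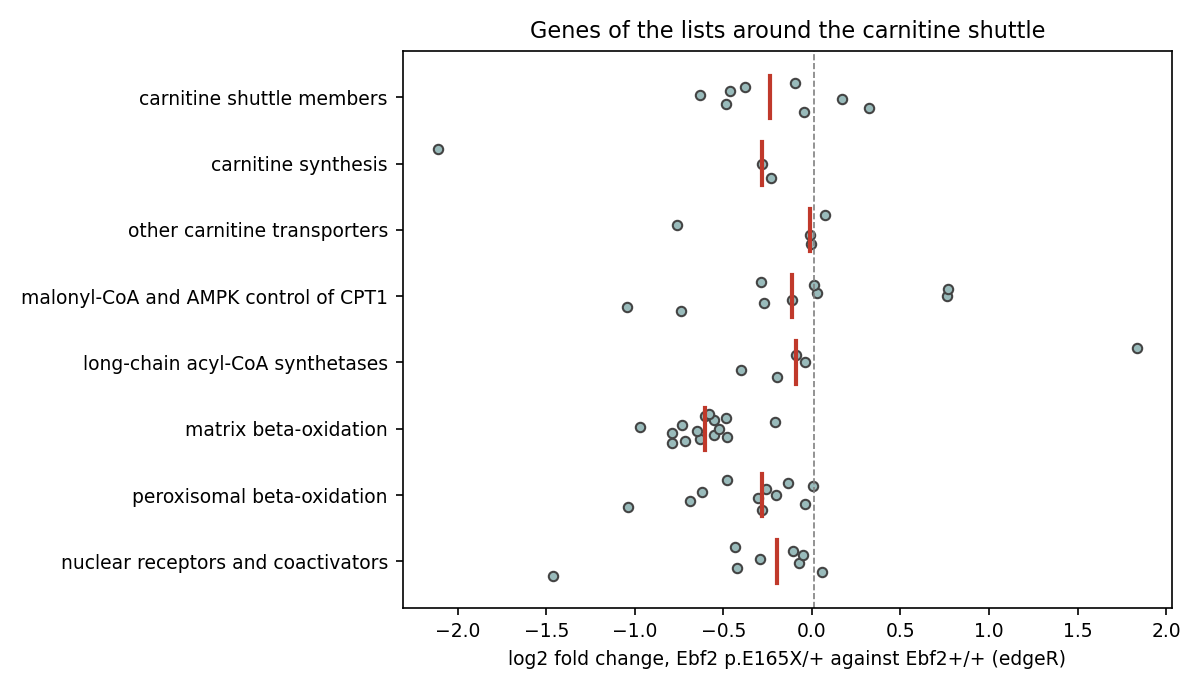
Log2 fold change by edgeR (Ebf2 p.E165X/+ against Ebf2+/+) of each tested gene of the carnitine shuttle and of the lists around it, with the median of each list as a red bar and the median of all genes (0.014) as a dashed line. The 15 genes of matrix β-oxidation all lie below 0 with a median of -0.60, while the 8 carnitine shuttle genes spread from -0.63 to 0.32.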

How the data were processed

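RNA of IWAT was sequenced from 3 Ebf2+/+ and 3 Ebf2 p.E165X/+ mice. The authors deposited expected counts per gene, not scaled, and all 332946 values were whole numbers. The submitters' processing notes name cutadapt 4.8, FastQC 0.11.8, STAR 2.7.8a, RSEM 1.3.3, MultiQC 1.20, and GRCm38.

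In R 4.3.3, the 32664 genes with a count were tested with edgeR 4.0.16 (TMM factors, quasi-likelihood test, genotype as the only term, Benjamini-Hochberg adjustment over these genes) at an adjusted *P* of 0.05. Counts of genes called over the whole table also needed a linear fold change of 1.5. Alternatives were DESeq2 1.42.0, limma-voom (limma 3.58.1), DESeq2 size factors in edgeR, 2 filters on low counts, a replicate block, a prior count of 0.5 in place of 2, shares on a log2 scale, and each library left out. DESeq2 without heterozygous library 3 was chosen after seeing the data. The fits were tested on simulated data, with 200 of 31724 genes changed at an absolute log2 fold change of 2. All 200 were recovered by edgeR, DESeq2, and limma-voom, with 9, 23, and 10 false calls. The simulation held no muscle-rich library. Recovery at that size says nothing of the power for smaller differences, such as those of *Cpt1a*, *Cpt2*, *Crat*, and *Slc25a20*. Exact permutation tests used Python 3.11.15 and scipy 1.17.1. Gene positions and lengths are those of GENCODE M21.

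The 8 genes and all lists were chosen with earlier results of these data known. Named are the 8 genes, *Ebf2*, up to 4 genes of each list past an adjusted *P* of 0.05 or else its lowest and highest with at least 10 counts in every library, the most abundant marker, adjacent genes, and the 3 nearest patterns. *Slc22a4*, *Slc22a16*, *Slc6a14*, *Bbox1*, *Elovl3*, *Dio2*, *Cox8b*, *Acaca*, *Mlycd*, *Prkaa2*, *Prkab2*, *Eci2*, *Esrra*, *Ppargc1b*, and *Ppard* were named after their values were seen.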

Additional observations from a re-analysis of the deposited data

How the results depend on the processing

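Of 214 alternative values, 194 were classed as the same as the main value. For log2 fold changes this meant the same direction and the same side of the threshold. For numbers of genes it meant a value within 1.5-fold. Marker shares and the *Cpt1b* to *Cpt1a* ratio could only keep or turn their direction. Their smallest possible exact *P* of 0.1 lies above the threshold, so their part of the 194 says nothing of significance. With DESeq2, *Ebf2* (-0.82) and *Slc25a20* (-0.64) passed, the latter as 1 of the 8 carnitine shuttle genes, and 98 genes passed the adjusted *P* and the linear fold change of 1.5, in place of 3 with edgeR. With DESeq2 and without the third heterozygous library, *Ebf2* (-0.78), *Cpt1a* (0.38), *Cpt1b* (-2.61), *Slc25a20* (-0.63), and *Crat* (-0.50) passed, so that 4 of the 8 genes were among 372 at an adjusted *P* of 0.05, and 158 of the 372 changed by more than 1.5-fold. The cause of the differences between tools was not tested.

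Leaving out each library in turn gave log2 fold changes of -0.86 to -0.77 for *Ebf2*, -2.60 to 0.014 for *Cpt1b*, 0.25 to 0.39 for *Cpt1a*, -0.61 to -0.38 for *Cpt2*, -0.49 to -0.26 for *Crat*, 0.033 to 0.27 for *Cpt1c*, -0.12 to -0.0023 for *Slc22a5*, and -0.14 to -0.051 for *Crot* with edgeR. Of the 8 genes, all but *Cpt1b* did not pass in any of these fits. *Ebf2* passed (adjusted *P* = 0.0423) without heterozygous library 3. *Cpt1b* passed without heterozygous library 3 and turned sign without heterozygous library 2. Between 0 and 1 of the 8 genes and between 1 gene (without wild-type library 2) and 11 genes (without heterozygous library 3) were called. The difference in marker share (heterozygous minus wild type, percentage points of counts) ranged from -0.221 to 2.10 for muscle, -0.393 to 0.0232 for adipocytes, and -0.0153 to 0.00114 for endothelial cells, and each turned sign without heterozygous library 3. The *Cpt1b* to *Cpt1a* log2 ratio differed by -3.00 to -0.99.

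The replicate numbers do not name litters or batches, so that libraries of the same number were not taken as pairs. After the log2 CPM of each gene was centred on its genotype mean, libraries of the same number correlated at 0.15, -0.28, and -0.16 over 18905 genes. Libraries of different numbers correlated at -0.32 to 0.39 on that scale. With a replicate block, *Slc25a20* had an adjusted *P* of 0.862, *Ebf2* of 0.502, *Cpt1b* a log2 fold change of -1.50, 0 of the 8 genes passed, and 2 genes were called. With 3 mice a genotype, differences of the size of *Cpt1a*, *Cpt2*, and *Crat* did not pass over all genes with edgeR, which does not show that the genotypes were alike. Whether each library is a separate mouse comes from the study, and the *P* values measure the spread between these libraries.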

Other observations

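Markers of the other cell types that IWAT can hold were summed in each library as a share of counts. B cell markers, led by *Cd22*, took 0.0258% to 0.0436% in Ebf2+/+ and 0.0443% to 0.0545% in Ebf2 p.E165X/+, with no overlap (two-sided exact permutation test, *P* = 0.1, the smallest possible, 0.45 after adjustment over 9 lists). Macrophage markers, led by *Mrc1*, took 0.0617% to 0.0905% against 0.0832% to 0.0924%, and fibroblast and progenitor markers, led by *Col1a1*, 0.491% to 0.65% against 0.614% to 0.682%. Endothelial markers, led by *Pecam1*, took 0.0987% to 0.105% against 0.0729% to 0.106%, with heterozygous library 3 lowest. Epithelial markers, led by *Krt5*, took 0.00019% to 0.00668% against 0.000165% to 0.00289%. These 4 lists overlapped between genotypes, and their part in the levels of the carnitine shuttle genes was not tested.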
